A study of Mus musculus with 5 samples.

Results

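Muscle contractile genes encode the motor, filament and calcium-handling proteins that shorten a muscle fibre, and most of them belong to families that also hold smooth muscle and non-muscle isoforms. They were followed here in cultured macrophages measured against whole embryo RNA, and 45 genes were described of 8452 measured. Members were chosen by a rule on the symbol in the array's annotation, which takes no measured value as input. They were the genes whose symbol starts with Myh, Myl (Myli left out), Mybp, Tnnc, Tnni, Tnnt, Tpm and a digit, Casq or Actn, and Acta1, Acta2, Actc1, Des, Ckm, Ttn, Ryr1, Eno3 and Pgam2. They had 101 probes with a single symbol, 98 of them with a value on all 5 arrays, and every one of the 45 genes kept at least 1 probe. By textbook role 31 were striated muscle isoforms, 6 non-muscle and 4 smooth muscle isoforms, 3 were tropomyosins used in muscle and in other cells, and Myl10 was left unclassed. Ryr1 and the other genes on the lists with no probe of a single symbol were not analysed here.

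The cells were macrophages grown from the bone marrow of C3H/HeJ mice in vitro with human CSF-1, on which this lineage depends. C3H/HeJ is a strain known for a Tlr4 mutation that makes it respond poorly to lipopolysaccharide (LPS) of bacteria. One group was not exposed (0 h), and the others were exposed for 0.5, 2, 7 or 21 h to LPS from Salmonella minnesota at 10 µg/ml. Each group was 1 sample on 1 array of 2 colours, and the other channel of every array held RNA of whole C57BL6/J embryos of 17.5 days. The sources used here do not give age or sex of the mice, pooling of animals or embryos, or the number of cultures. Strain, culture and tissue all differ between the channels, and their parts and that of the channel itself cannot be told apart. The reference contains every tissue of the fetus, and a lower ratio cannot tell fewer cells of a type from less RNA per cell.

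In striated muscle, myosin heavy chains pull on thin filaments of actin, tropomyosin and troponin, and the light chains and myosin binding protein C tune the motor. Fast, slow, cardiac and developmental fibres use different genes for the same part. Non-muscle cells build their contractile cortex from other isoforms of the same families, among them Myl6, Myl12a, Myl12b, Actn1, Actn4 and Tpm4.

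Values are centred log ratios: the deposited log ratio of a probe less the array's median over all genes, averaged over the probes of a gene. Macrophage over embryo is the likely direction, since the labels give the macrophage as channel 1 and the embryo as channel 2. Of 8 measured macrophage identity genes 5 were 2-fold or more above 0 and none below, the highest being Lilrb4a (1.61), the Fc receptor gene Fcgr1 (1.43) and Lyz2 (1.22), a lysozyme of myeloid cells. Of 8 erythroid genes 6 were 2-fold or more below 0, the lowest being the adult globin genes Hbb-b1 (-1.87), Hba-a2 (-1.59) and Hba-a1 (-1.45) and the highest Hba-x (-0.31), Hbb-y (-0.27) and Slc4a1 (0.17). The macrophage genes Cd68 (-0.19), Tyrobp (-0.17) and Marco (-0.05) were below 0 by less than 2-fold, and Cd68 read -0.31 at 2 h. Of 18 listed macrophage genes only these 8 were measured, counting those above and below 0. The base of the logarithm is not stated and was read as 10, so that 2-fold is 0.30 units. Of all genes, 9.34% had a mean 2-fold or more above 0 and 8.92% a mean that far below. Means are over the 0, 2, 7 and 21 h arrays, with the SD over these 4 arrays, which are different times and not replicates. The 0.5 h array followed the others less well, with a correlation over the 45 members of 0.63 with the mean of the other arrays, where the others had between 0.87 and 0.97 (Pearson, across genes that share the embryo reference). It was known from an earlier account of these data to stand apart. It was therefore left out of the means beforehand and is given on its own. No test was run, because each group had 1 array.

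The promoters of 5 striated members and 1 non-muscle member are shown so that isoforms of the same families can be compared. They are the 250 bases before the RefSeq start of the gene (GRCm38.p6), 5′ to 3′, from a table that held 42 of the 45 members. Capitals mark an E-box (CANNTG, bound by myogenic helix-loop-helix factors), the MEF2 motif, the CArG box of serum response factor, and TATAAA, searched on both strands, where TATAAA can lie inside a MEF2 motif. Myl1, the lowest member, is followed by 3 heavy chain genes of chromosome 11, by cardiac actin, and by Actn4 as a non-muscle isoform.
Myl1, chr1:66945057-66945306, - strand: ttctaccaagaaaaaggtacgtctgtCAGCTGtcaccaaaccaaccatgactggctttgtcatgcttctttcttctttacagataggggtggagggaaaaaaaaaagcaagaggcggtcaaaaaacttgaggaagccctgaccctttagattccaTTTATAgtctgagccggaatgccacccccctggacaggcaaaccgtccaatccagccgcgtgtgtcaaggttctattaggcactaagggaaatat
Myh1, chr11:67199852-67200101, + strand: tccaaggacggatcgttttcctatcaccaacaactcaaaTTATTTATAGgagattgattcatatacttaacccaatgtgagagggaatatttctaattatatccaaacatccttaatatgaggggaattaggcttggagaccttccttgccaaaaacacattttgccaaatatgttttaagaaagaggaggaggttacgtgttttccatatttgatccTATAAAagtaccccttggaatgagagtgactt
Myh8, chr11:67276874-67277123, + strand: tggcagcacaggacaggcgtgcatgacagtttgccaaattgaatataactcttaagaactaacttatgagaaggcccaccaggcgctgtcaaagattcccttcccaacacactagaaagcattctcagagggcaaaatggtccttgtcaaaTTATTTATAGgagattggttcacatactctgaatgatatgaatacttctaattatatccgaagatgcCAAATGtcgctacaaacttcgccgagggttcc
Myh4, chr11:67237562-67237811, + strand: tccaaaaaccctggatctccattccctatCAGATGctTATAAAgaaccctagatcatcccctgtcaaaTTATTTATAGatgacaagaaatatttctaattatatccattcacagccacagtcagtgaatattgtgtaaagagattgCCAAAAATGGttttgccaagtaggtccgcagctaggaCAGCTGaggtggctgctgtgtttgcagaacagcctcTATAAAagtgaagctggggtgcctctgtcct
Actc1, chr2:114052876-114053125, - strand: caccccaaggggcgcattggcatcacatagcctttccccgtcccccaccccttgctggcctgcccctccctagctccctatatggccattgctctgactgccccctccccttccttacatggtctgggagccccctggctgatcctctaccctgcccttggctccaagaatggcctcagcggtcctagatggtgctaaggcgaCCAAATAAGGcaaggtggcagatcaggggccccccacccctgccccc
Actn4, chr7:28962333-28962582, - strand: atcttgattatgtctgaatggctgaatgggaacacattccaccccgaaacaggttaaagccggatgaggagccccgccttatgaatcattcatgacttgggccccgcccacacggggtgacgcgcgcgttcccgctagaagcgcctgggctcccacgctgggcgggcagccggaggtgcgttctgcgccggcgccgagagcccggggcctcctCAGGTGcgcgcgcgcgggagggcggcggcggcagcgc

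Among the 29 striated members with such a promoter, 6 held a MEF2 motif in this window (Mybpc3, Myh1, Myh4, Myh8, Pgam2 and Ttn), beside 3.42% of all 27025 genes of the table. An E-box lay in 25 of the 29, beside 69.3% of all genes, a CArG box in 4, beside 1.62%, and TATAAA in 8, beside 14.3%. Of 6 non-muscle members 4 held an E-box, none MEF2 or TATAAA, and Myl6 held a CArG box. Myh1 and Myh8 shared a run of 22 bases, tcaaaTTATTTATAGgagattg, which starts 216 bases before the start of Myh1 and 104 before that of Myh8. The same motif stands in Myh4, 182 bases before the start. These are matches of letters, not binding sites, and the arrays measured no binding.

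Striated isoforms were mostly lower in macrophages than in the embryo, while the 6 measured non-muscle isoforms were within 2-fold by their means. Of 31 striated members 21 were 2-fold or more below the embryo, beside 8.92% of all genes, and none was 2-fold or more above, beside 9.34%. Read as base 2, which the files do not settle, the count below was 4 of 31, beside 0.757% of all genes, and with the probe of highest ratio per gene it was 14, beside 8.1%. Of the 6 non-muscle members none was 2-fold away in either direction, beside 18.3% of all genes. Among so few genes this is near that share and sets them apart from no other genes. They were 6 of 10 listed, and the heavy chains Myh9 and Myh10 were not among them. The median was -0.43 for striated and 0.09 for non-muscle members, where that of all genes was 0.01. The difference of these medians was -0.52. Taken on each array by itself, the difference had an SD of 0.06 over the 4 averaged arrays. It was -0.43 before LPS, -0.67 after 0.5 h, and -0.50, -0.47 and -0.58 after 2, 7 and 21 h. Thus it lay on the same side of 0 on all 5 arrays, which share the embryo reference and its channel.

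The number of striated members 2-fold or more below was 20 before LPS, beside 8.9% of all genes. After 0.5, 2, 7 and 21 h it was 20, 22, 22 and 21, beside 17%, 12.9%, 8.02% and 9.12%. At 0.5 h 3 striated members, Mybpc1, Mybphl and Myl4, were 2-fold or more above, beside 23.4%, and at 21 h 1, Tnni3, beside 9.67%. Of the 6 non-muscle members Actn1, Actn4 and Tpm4 were that far above at 0.5 h and Actn4 at 21 h, and none was that far below on any array. On each of the 0, 2, 7 and 21 h arrays 17 of the 31 striated members were 2-fold or more below, beside 4.76% of all genes, and on all 5 arrays 14, beside 3.8%. By their means 29 of the 31 striated members stood below Actn1, the lowest non-muscle member, beside 41.7% of all genes. The other striated members were Mylk3 and Tnni3, both cardiac.

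**Figure D1:**
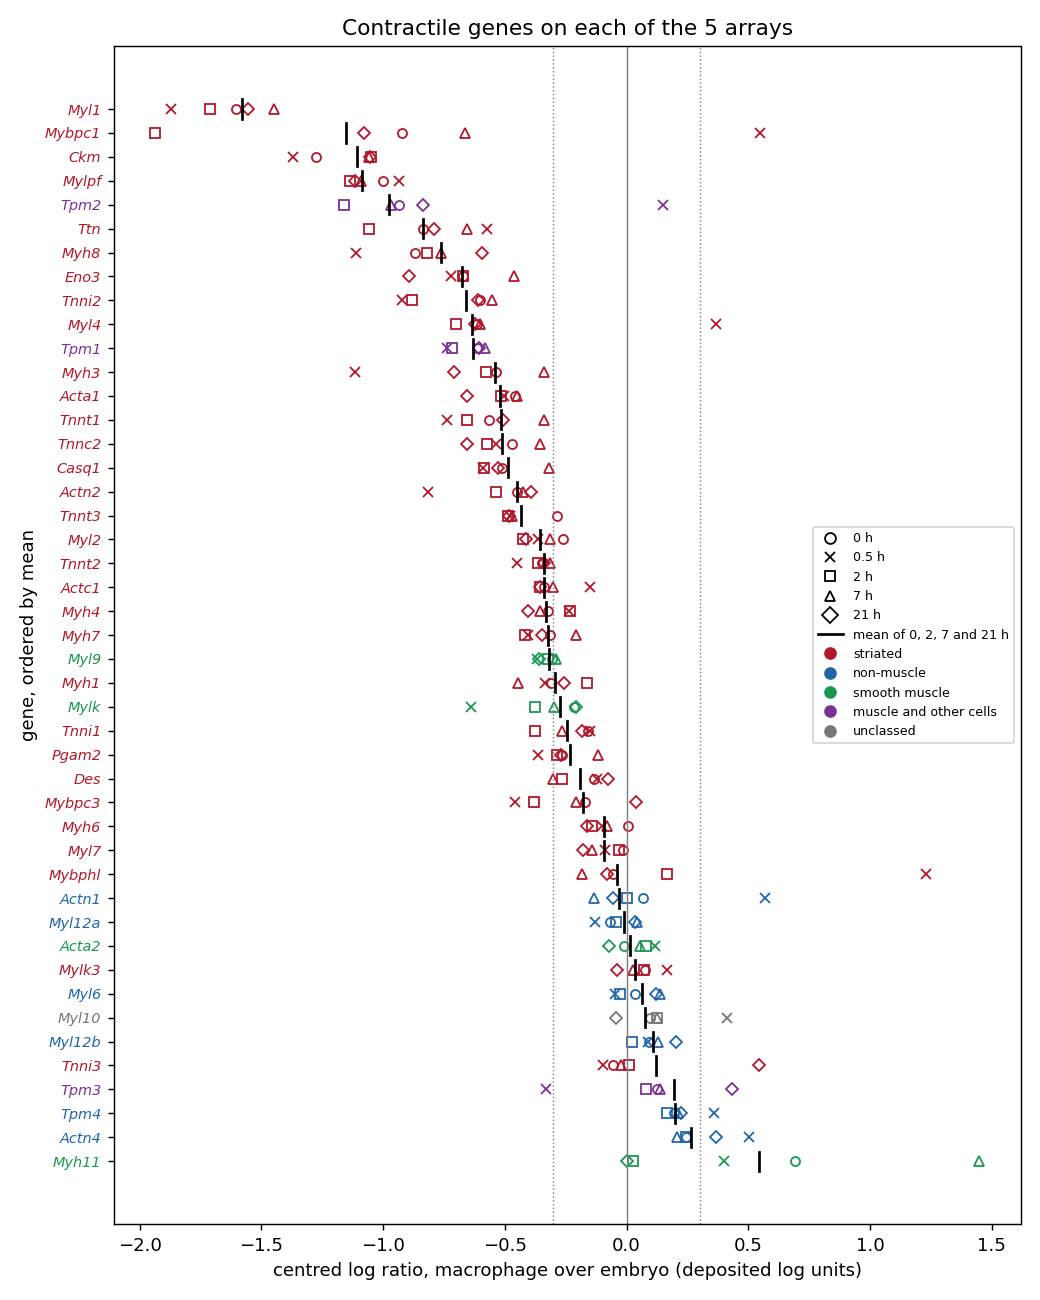
Centred log ratio of each of the 45 genes on each of the 5 arrays (x axis, deposited log units; 1 symbol shape per time), ordered by the mean over 0, 2, 7 and 21 h (black bar) and coloured by class; dotted lines mark 2-fold. Striated isoforms fill the lower end from Myl1 at -1.58, while the non-muscle isoforms lie between -0.03 and 0.27.

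**Figure D2:**
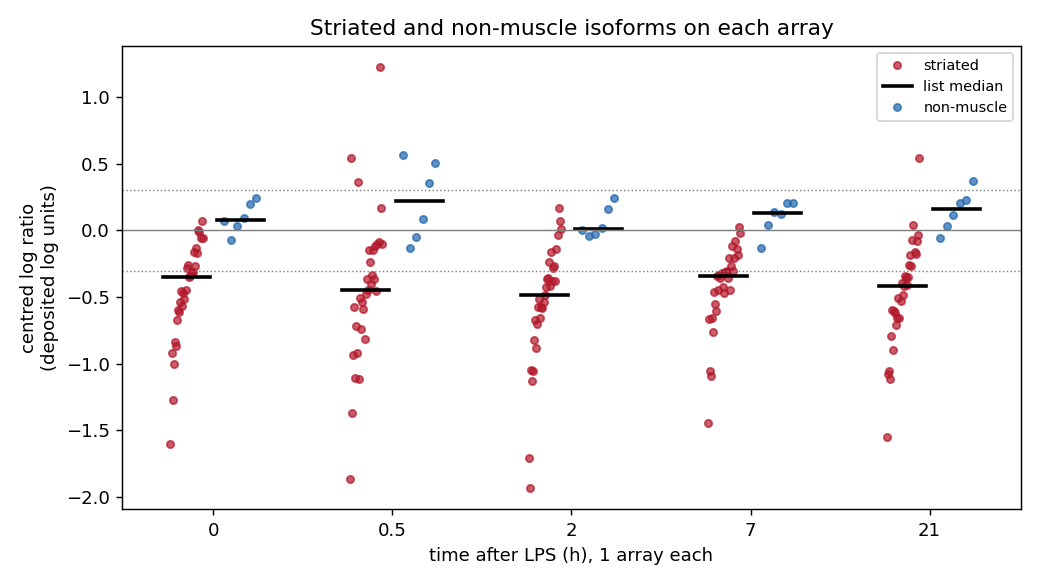
Centred log ratios (y axis, deposited log units) of the 31 striated and 6 non-muscle members on each array (x axis, h after LPS), 1 point per gene, with the median of each list as a bar and 2-fold as dotted lines. The striated median is under the non-muscle median on all 5 arrays, and at 0.5 h 3 striated genes lie more than 2-fold above 0.

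Among the myosin light chains Myl1, the alkali light chain of fast fibres (Entrez 17901), was lowest of all members. Myl1 read -1.60 before LPS and -1.87, -1.71, -1.45 and -1.55 after 0.5, 2, 7 and 21 h. All 5 arrays were below -1.4, and each of its 4 probes had a mean between -1.90 and -1.43. Its mean of -1.58 ± 0.11 (SD, 4 arrays) is 38.0-fold in base 10 and would be 2.99-fold in base 2; only 0.15% of genes were lower. Mylpf, the regulatory light chain of fast fibres, followed on 1 probe. Before LPS Mylpf read -1.001, and after 0.5, 2, 7 and 21 h it read -0.93, -1.13, -1.09 and -1.12. All 5 arrays lay between -1.13 and -0.93. Myl4, the light chain of atrium and fetal muscle, was as even on 4 arrays. Myl4 stood at -0.62 unexposed and at 0.37, -0.70, -0.60 and -0.62 after 0.5, 2, 7 and 21 h. The 0.5 h array stood on the other side of 0. Myl2 of slow and ventricular muscle was at -0.35 ± 0.08 and the atrial Myl7 at -0.09 ± 0.08.

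The light chains of other cells were near 0. Myl6, the alkali light chain of non-muscle and smooth muscle myosin, was at 0.07 ± 0.08 with probe means from -0.04 to 0.16. Myl12a was at -0.01 ± 0.06 over 4 probes and Myl12b at 0.11 ± 0.08 over 2, both regulatory light chains of non-muscle myosin. Against these, Myl9, the regulatory light chain of smooth muscle, was at -0.32 ± 0.03 with all 3 probes below 0. The kinases of light chains differed: Mylk, of smooth muscle and other cells, was at -0.28 ± 0.08 and the cardiac Mylk3 at 0.03 ± 0.05. Myl10 was at 0.08 ± 0.08.

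Myosin heavy chains move the filaments. Myh3, the embryonic heavy chain, was measured on 1 probe. Myh3 read -0.54 before LPS and -1.11, -0.58, -0.34 and -0.71 after 0.5, 2, 7 and 21 h. It was below 0 on all 5 arrays and lowest at 0.5 h. Myh8, the perinatal heavy chain, was lower still. Before LPS Myh8 read -0.87, and after 0.5, 2, 7 and 21 h it read -1.11, -0.82, -0.76 and -0.60. The adult fast heavy chains were closer to 0 by their means, with Myh4 at -0.33 ± 0.07 and Myh1 at -0.29 ± 0.12. In time order Myh1 read -0.31, -0.33, -0.16, -0.45 and -0.26, below 0 on every array as a mean over 3 probes. The probe means of Myh1 ran from -0.80 to 0.21, so its place against Myh3 and Myh8 depends on the probe. Myh7 of slow and ventricular muscle was at -0.32 ± 0.09 and the atrial Myh6 at -0.09 ± 0.08. The heavy chain genes are close copies of each other, and how far a probe of 1 also binds another was not tested.

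Myh11, the heavy chain of smooth muscle, was the 1 member 2-fold or more above the embryo by its mean. Myh11 stood at 0.69 unexposed and at 0.40, 0.03, 1.45 and 0.00 after 0.5, 2, 7 and 21 h. It was high at 0 and 7 h and near 0 at 2 and 21 h, and its SD over 4 arrays (0.68) was larger than its mean of 0.54. It rests on 1 probe. Of the other smooth muscle markers Acta2, the smooth muscle actin, was at 0.01 ± 0.07. In the separate list of smooth muscle genes 5 of 9 were measured. None of the 5 was 2-fold away, beside 18.3% of all genes, and their median was -0.17. They were Tagln (-0.25), Cald1 (-0.21), Cnn1 (-0.17), Csrp1 (0.05) and Smtn (0.07).

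Mybpc1, the slow isoform of myosin binding protein C, had the widest range over the 5 arrays. Mybpc1 read -0.92 before LPS and 0.55, -1.94, -0.67 and -1.08 after 0.5, 2, 7 and 21 h. It was low on 4 arrays, lowest at 2 h, and above 0 at 0.5 h, all on 1 probe. Mybpc3, the cardiac isoform, was at -0.18 ± 0.17, with 1 probe at -0.64 and the other at 0.28. In time order Mybpc3 read -0.17, -0.46, -0.38, -0.21 and 0.04, so that the 21 h array alone was above 0. Mybphl, a related cardiac protein, was at -0.04 ± 0.15 and at 1.23 at 0.5 h.

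The thin filament was split by isoform. Troponin senses calcium and uncovers the actin for myosin. For fast troponin I, Tnni2, 3 probes were averaged. Before LPS Tnni2 read -0.60, and after 0.5, 2, 7 and 21 h it read -0.92, -0.88, -0.55 and -0.61. The slow isoform was closer to 0. Tnni1 stood at -0.16 unexposed and at -0.15, -0.38, -0.27 and -0.18 after 0.5, 2, 7 and 21 h. The cardiac isoform was the least low. Tnni3 read -0.06 before LPS and -0.10, 0.01, -0.02 and 0.54 after 0.5, 2, 7 and 21 h. As a mean over its probes Tnni2 was below both on every array, and Tnni3 was near 0 except at 21 h. The order did not hold for each probe. The probe means of Tnni2 were -1.02, -0.94 and -0.03, and the last was above both probes of Tnni1 (-0.34 and -0.15).

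Troponin T anchors the complex to tropomyosin. Before LPS Tnnt1 read -0.57, and after 0.5, 2, 7 and 21 h it read -0.74, -0.66, -0.34 and -0.51. Tnnt2 stood at -0.35 unexposed and at -0.45, -0.36, -0.31 and -0.34 after 0.5, 2, 7 and 21 h. Tnnt3 read -0.29 before LPS and -0.48, -0.49, -0.47 and -0.48 after 0.5, 2, 7 and 21 h. All 3 of these isoforms (slow, cardiac and fast) were below 0 on every array, with means of -0.52, -0.34 and -0.43. Tnnc2, the fast troponin C, had a mean of -0.51 ± 0.13. From 0 to 21 h its arrays read -0.47, -0.54, -0.57, -0.36 and -0.66, all past 2-fold below.

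Tropomyosins lie along the actin filament. Tpm2, mostly of skeletal and smooth muscle, was the lowest, from 5 probes. Before LPS Tpm2 read -0.94, and after 0.5, 2, 7 and 21 h it read 0.15, -1.16, -0.97 and -0.83. It was low on 4 arrays and above 0 at 0.5 h. Tpm1, of muscle and other cells, had 7 probes. Tpm1 stood at -0.61 unexposed and at -0.74, -0.72, -0.58 and -0.61 after 0.5, 2, 7 and 21 h. All 5 arrays lay between -0.74 and -0.58. Tpm3 and the non-muscle Tpm4 were above 0 by their means. Tpm3 read 0.12 before LPS and -0.33, 0.08, 0.14 and 0.43 after 0.5, 2, 7 and 21 h. Before LPS Tpm4 read 0.20, and after 0.5, 2, 7 and 21 h it read 0.36, 0.16, 0.21 and 0.23. Tpm4 was above 0 on all 5 arrays, below 2-fold by its mean. Tpm1 and Tpm3 are known to give muscle and non-muscle splice forms, and which forms their probes bind was not tested.

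Among actins, skeletal Acta1 was at -0.52 ± 0.10 on 1 probe and cardiac Actc1 at -0.34 ± 0.03 over 7 probes, all below 0. The actins are close copies, and how far their probes bind each other's transcripts was not tested. The alpha-actinins cross-link actin. Actn2 of the striated Z-disc had 2 probes. Actn2 stood at -0.45 unexposed and at -0.82, -0.54, -0.43 and -0.39 after 0.5, 2, 7 and 21 h. The non-muscle isoforms were higher. Actn1 read 0.07 before LPS and 0.57, 0.00, -0.13 and -0.06 after 0.5, 2, 7 and 21 h. Before LPS Actn4 read 0.24, and after 0.5, 2, 7 and 21 h it read 0.50, 0.25, 0.21 and 0.37. As a mean over its 2 probes Actn2 was below both on every array, but 1 of these probes had a mean of -0.02, beside -0.03 for Actn1.

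Ttn, the giant spring of the sarcomere, had 4 probes. Ttn stood at -0.83 unexposed and at -0.57, -1.06, -0.66 and -0.79 after 0.5, 2, 7 and 21 h. It was below 0 on all 5 arrays, with probe means from -1.45 to -0.06. Des, the intermediate filament of muscle, was at -0.19 ± 0.11, and Casq1, the calcium buffer of the fast fibre's store, at -0.49 ± 0.12. The muscle enzymes followed. Ckm read -1.27 before LPS and -1.37, -1.05, -1.06 and -1.05 after 0.5, 2, 7 and 21 h. Ckm, muscle creatine kinase, was below -1 on every array. Before LPS Eno3 read -0.67, and after 0.5, 2, 7 and 21 h it read -0.72, -0.67, -0.46 and -0.89. Eno3, muscle enolase, was below 0 on every array with all 4 probes, and Pgam2, muscle phosphoglycerate mutase, was at -0.23 ± 0.08.

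Sorted by fibre type, an order drawn from textbook roles after the values were known, fast skeletal isoforms had a median of -0.51 and 6 of 7 were 2-fold or more below. Both developmental heavy chains were, and 4 of 5 slow or slow and cardiac isoforms, with a median of -0.35. Of 9 cardiac isoforms 3 were, Myl4, Tnnt2 and Actc1, with a median of -0.09. The 5 genes of scaffold, actin and calcium store had a median of -0.49 with 4 that low, and the 3 enzymes -0.67 with 2. The share over all genes is the 8.92% given above. Myl4, Tnnt2 and Actc1 are also known from developing skeletal muscle.

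Probes of a gene often disagreed. Of 25 members with 2 or more probes, the probe means of 10 spanned more than 4-fold (0.60), namely Tpm2, Ttn, Tnni2, Tpm1, Tnnc2, Actn2, Tnnt3, Myh1, Mybpc3 and Tpm3. The widest was Tnnt3, with a lowest probe at -1.22 and a highest at 0.42. In Actn2 the probes stood at -0.89 and -0.02, and in Tnnc2 at -0.93 and -0.09. Of 14 striated members with 2 or more probes, 10 had every probe below 0. Myl1 (4 probes), Eno3 (4) and Actc1 (7) were among these, so that their ratios do not rest on 1 spot. Neither count was made over all 2968 genes with 2 or more probes. Both describe the members and are not shown to be particular to them.

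**Figure D3:**
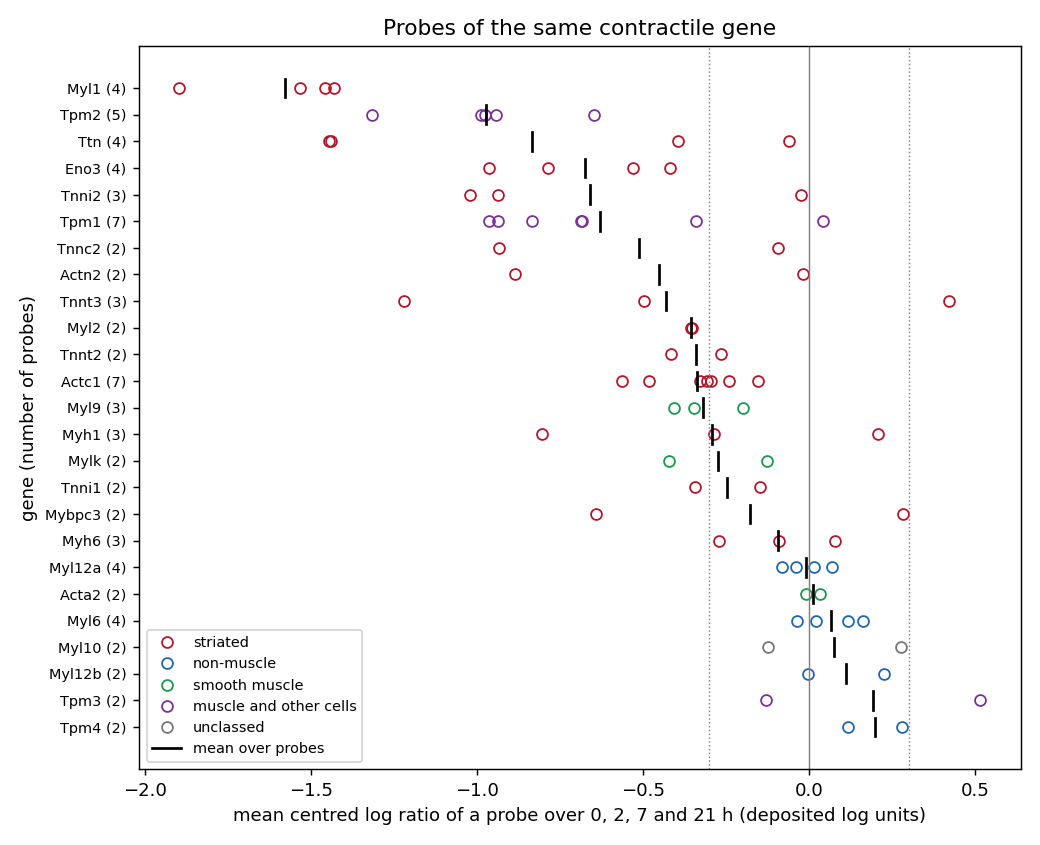
Mean centred log ratio over 0, 2, 7 and 21 h of each probe (x axis, deposited log units) of the 25 members with 2 or more probes, 1 circle per probe and a bar at the gene's mean, coloured by class; dotted lines mark 2-fold. The probes of Tnnt3 reach from -1.22 to 0.42, while those of Myl12a stay between -0.08 and 0.07.

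In 4 other lists of muscle genes, drawn up by role, the medians lay between -0.24 and -0.15 and no gene was 2-fold or more above the embryo. Of 18 measured genes of the sarcomere scaffold 7 were 2-fold or more below, beside 8.92% of all genes, and none above, beside 9.34%. Their median was -0.20 and all 18 were below 0, beside 4072 of all 8452 genes. The lowest were Synpo2l (-0.83), Ldb3 (-0.68), a Z-disc protein, and Smpx (-0.57), and the highest Tcap (-0.12), which caps titin, Xirp1 (-0.11) and Tmod1 (-0.09), which caps thin filaments. Of 12 genes of excitation and calcium 3 were that low, Srl (-1.06), Atp2a1 (-0.68), the calcium pump of fast muscle, and Sln (-0.49), its inhibitor sarcolipin. The highest were Chrna1 (-0.09), a subunit of the acetylcholine receptor of muscle, Jsrp1 (-0.05) and Atp2a2 (0.00), the pump of heart and other cells.

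Of 9 muscle metabolism genes 3 were 2-fold or more below, beside 8.92% of all genes. They were Ckmt2 (-0.60), the creatine kinase of muscle mitochondria, Pfkm (-0.31) and Pygm (-0.30). The highest were Cox7a1 (-0.18), Mb (-0.10), which is myoglobin, and Slc2a4 (0.00). The 4 genes at or above 0 in these lists were Atp2a2, Slc2a4, Mef2d and Myod1. Of 5 myogenic factors 2 were 2-fold or more below, beside the same 8.92%, Myf6 (-0.60) and the fusion protein Mymk (-0.46). Mef2c was at -0.24, Mef2d at 0.02 and Myod1 at 0.11. The non-muscle cytoskeleton was on the other side, with a median of 0.36. Of its 29 measured genes 17 were 2-fold or more above, beside 9.34% of all genes, and 2 below, beside 8.92%. Its highest were Lcp1 (1.29), an actin bundler of leukocytes, Tmsb4x (0.62), which binds free actin, and Arpc1b (0.59), of the actin branching complex. Its lowest were Cnn3 (-0.43), Cnn2 (-0.38) and Vcl (-0.27).

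Genes of other embryo tissues were low too. Of 9 fibroblast genes 6 were 2-fold or more below, beside 8.92% of all genes. Col1a2 at -1.59, Postn at -1.45 and Col1a1 at -1.20 were lowest, and Col3a1 (-0.17), Fbln1 (0.01) and Pdgfra (0.03) highest. The 5 genes nearest to Myl1 over the 5 arrays, by the root mean square distance of their log ratios, were Postn (0.13), Nedd4 (0.13), Ddx21 (0.20), Gpr155 (0.22) and Col6a1 (0.22). None of them is a contractile gene by the rule used here.

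After 2, 7 and 21 h of LPS few members differed by 2-fold or more from the unexposed macrophages, in numbers near the share of all genes. Differences from the 0 h array share that array. After 2 h 2 of the 45 were 2-fold or more away, beside 6.81% of all genes, both lower, beside 2.58%. After 7 h 1 was, beside 4.74%, and it was higher, beside 3.35%. After 21 h 3 were, beside 9.02%, 2 of them higher, beside 4.33%, and 1 lower, beside 4.69%. The median difference of striated members was -0.09, 0.03 and -0.02 after 2, 7 and 21 h, where that of all genes was -0.01, 0.02 and 0.00. The SD between probes of a gene in such a difference was 0.16, 0.16 and 0.19 over all 2968 genes with 2 or more probes.

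The members past 2-fold were few and mostly on 1 probe. Mybpc1 differed by -1.01, 0.26 and -0.16 after 2, 7 and 21 h. Myh11 differed by -0.67, 0.76 and -0.69, so its 0 h array lay between the others. Tnni3 differed by 0.60 at 21 h on 1 probe. With probes that lack a value only at 0.5 h included, it differed by 0.29, short of 2-fold, and its mean against the embryo was -0.02 instead of 0.12. Besides it, Tpm3 differed by 0.31 ± 0.07 (SD over 2 probes) at 21 h. Over the 0, 2, 7 and 21 h arrays 33 of the 45 members kept within a 2-fold range, 73.3%, beside 74.3% of all genes.

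**Figure D4:**
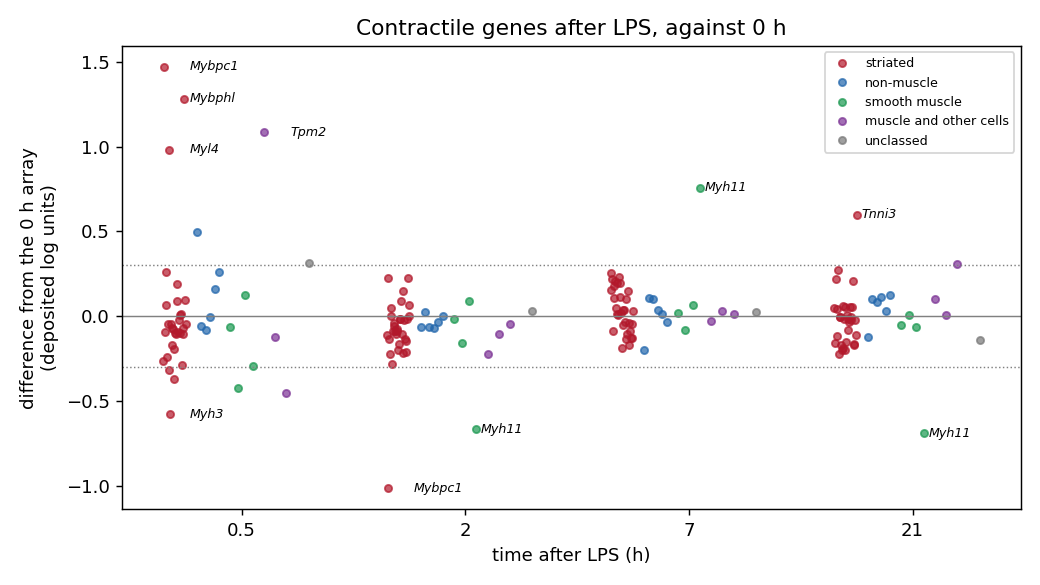
Difference of each of the 45 members from the 0 h array (y axis, deposited log units) at each time after LPS (x axis, h), 1 point per gene, coloured by class, with 2-fold as dotted lines and genes beyond 0.55 named. The points at 2, 7 and 21 h crowd near 0 apart from Mybpc1, Myh11 and Tnni3, and they spread most at 0.5 h.

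At 0.5 h 11 of the 45 members were 2-fold or more from 0 h, 6 higher and 5 lower, beside 30.5% of all genes, 19.9% higher and 10.6% lower. Higher were Mybpc1 (1.47), Mybphl (1.28), Tpm2 (1.09 ± 1.23, SD over 5 probes), Myl4 (0.98), Actn1 (0.50) and Myl10 (0.31 ± 0.22, 2 probes). Lower were Myh3 (-0.58), Tpm3 (-0.45 ± 0.23, 2 probes), Mylk (-0.42 ± 0.31, 2 probes), Actn2 (-0.37 ± 0.66, 2 probes) and Tnni2 (-0.32 ± 0.23, 3 probes). For Tpm2 and Actn2 the spread between probes was wider than the difference. With each array scaled to 1 median absolute deviation, 5 of the 11 calls were kept, Mybpc1, Mybphl, Tpm2, Myl4 and Tpm3. Of the lower ones Myh3 was then at -0.08, Mylk at -0.14, Actn2 at -0.00025 and Tnni2 at 0.10, and of the higher ones Actn1 was at 0.26 and Myl10 at 0.14. After quantile normalization 6 were kept, the same 5 as after scaling and Myh3. Other members were called instead. Scaling gave 10 calls in all, beside 19.9% of all genes, with Ckm, Myh11, Myl1, Mylpf and Ttn new. Quantile normalization gave 9, beside 23.9%, with Myh11, Mylpf and Ttn new.

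Probe by probe, 12 of 98 departed at 0.5 h by 4-fold or more from their mean on the other arrays, beside 13.6% of all named probes, 9 upwards and 3 downwards. Agreement between the 0.5 h array and the other arrays varied with probe number, as measured by the correlation over up to 200 neighbouring probes. Of the 12 departing probes 7 lay where this correlation was 0.3 or less, a zone holding 20 of the 98, and 5 where it was 0.7 or more, a zone holding 57. The probes of Mybpc1 (0.28), Myl4 (-0.06), 2 of Actc1 (-0.01 and 0.01), 2 of Tpm2 (0.08 and 0.28) and 1 of Ttn (0.14) were in the first zone. Mybphl (0.75), Actn2, Tpm3 and another probe each of Tpm2 and Ttn were in the other. The splits by direction and by zone were not made over all named probes. They describe these 98 probes and are not shown to be particular to the members. The part of array position in these departures was not tested.

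**Figure D5:**
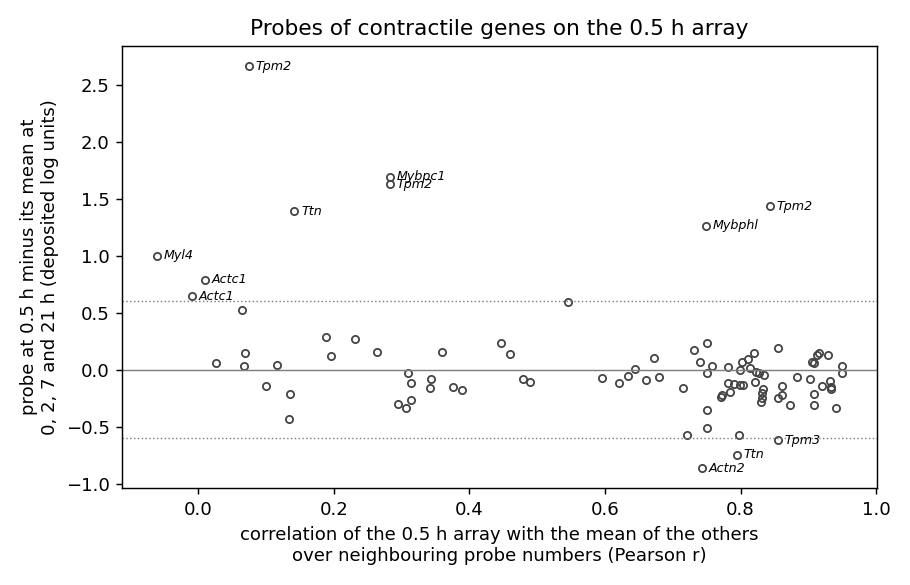
Value of each of the 98 member probes at 0.5 h less its mean at 0, 2, 7 and 21 h (y axis, deposited log units), against the Pearson correlation of the 0.5 h array with the mean of the others over up to 200 neighbouring probe numbers (x axis); dotted lines mark 4-fold and probes beyond them are named. The departures reach 2.67 for a probe of Tpm2 where the correlation is 0.08.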

How the data were processed

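RNA of macrophages at 5 times was compared with embryo RNA on 5 arrays of 2 colours, 1 per time. The deposited values are log ratios, read as log10 of macrophage over embryo; base, centring and direction are not stated, and the sources used here name no scanner, background correction or normalization. Deposited medians in time order were 0.04, 0.07, 0.05, 0.00 and 0.03. Spot brightness was not used here, which leaves the signal over background unknown. Precision is limited by having 5 arrays. Of 19828 probes 14759 had 1 symbol, 170 several and 4899 none in the platform annotation; 14628 were updated through the Entrez identifier in RefSeq (GRCm38.p6), which changed no member. Probes with a value on all arrays were averaged per gene and centred on the array's median over genes. Members and lists were chosen with earlier results of these data known. Every measured member is named; values by array are given by rule for the 8 lowest and 5 highest members, the troponins, tropomyosins, actinins and Myh3, members 2-fold from 0 h at 2, 7 or 21 h, and members whose probe means span over 4-fold, and of other lists the 3 lowest and 3 highest. The centring and the size rule were run on simulated differences from 0 h with independent noise. The tolerance of that check was wider than 2-fold, so it could not show that a 2-fold change is recovered. The contrast of striated with non-muscle members and the local disagreement of the 0.5 h array were not simulated. Alternatives covered centring, scaling, log base, joining of probes, missing values, size rule, arrays averaged and class limits. Python 3.11.15, numpy 2.4.6, pandas 2.3.3 and matplotlib 3.10.9 were used.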

Additional observations from a re-analysis of the deposited data

How the results depend on the processing

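The striated median stayed below the non-muscle median under every alternative tried, with a difference between -0.57 (quantile normalization) and -0.43 (probe of highest ratio per gene). Leaving out each of the 4 averaged arrays in turn gave differences from -0.55 to -0.48, striated medians from -0.45 to -0.41, non-muscle medians from 0.06 to 0.12, and 21 to 22 striated members 2-fold or more below. The count of 21 became 9 with a 4-fold rule and 4 with base 2, beside 2.54% and 0.757% of all genes. With the probe of highest ratio the count below was 14, beside 8.1% of all genes, the striated median was -0.28, the non-muscle median 0.16 and the difference -0.43, and 1 striated member was 2-fold or more above, Tnnt3 at 0.39; Tpm1 was then at 0.00846. Non-muscle members 2-fold away in either direction were 1 of 6 after quantile normalization and 1 of 6 over all 5 arrays. With Tpm1, Tpm2 and Tpm3 added to the 6 they were 2, Tpm1 and Tpm2, both below. With the 4 smooth muscle members added instead they were 2, Myl9 below and Myh11 above. For these additions the share of all genes is the 18.3% of the main setting. For quantile normalization and for the mean over all 5 arrays the share in either direction was not taken. Members 2-fold from 0 h at 0.5, 2, 7 and 21 h numbered 3, 1, 0 and 0 with base 2, beside 5.13%, 0.308%, 0.201% and 0.13% of all genes. With a 4-fold rule they were 4 at 0.5 h (13% of all genes) and 2 at 2 h (1.24%), Mybpc1 and Myh11. By the same rule 1 was called at 7 h (0.935%) and 1 at 21 h (1.27%), in both cases Myh11. With the median probe 4 were at 2 h (6.96%), with the probe of highest ratio 2 at 7 h (7.29%) and 6 at 21 h (12.6%), and with the mean of the other arrays as baseline 2 at 7 h (7.36%). With probes that lack a value only at 0.5 h included, 2 were at 21 h (9.31%), without Tnni3. At 0.5 h Tnni2 was at 0.10 after scaling to 1 median absolute deviation, and Actn2 at 0.076 with its highest probe. In an alternative chosen after seeing the data, over probes in stretches with a correlation of 0.7 or more at 0.5 h, 10 of 36 members were 2-fold from 0 h, beside 20.5% of 4736 genes. The cause of these changes was not tested beyond the alternatives' own construction. No paired analysis was possible because each group had 1 array.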
